A study of Rattus norvegicus with 9 samples.

Results

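The heparan sulfate proteoglycans of the cell surface, the syndecans and glypicans, were followed in the spinal cord of rats with a nerve injury. The genes taken were Sdc1, Sdc2, Sdc3, Sdc4, Gpc1, Gpc2, Gpc3 and Gpc5, found by gene name among the 34890 loci listed. Of these 8 genes, 7 had a row. Gpc5 matched no row by name and was not analysed here. The genes were selected on their levels in the drug-treated and the untreated injured rats, so the contrast of those groups is given as a description, with no p for a member.

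RNA was sequenced from the ipsilateral L3-L6 spinal cord of male wild-type Sprague Dawley rats, 3 samples in each of 3 groups. The JA group had a sham operation and was given oral normal saline. The SNI group had the spared nerve injury, in which 2 branches of the sciatic nerve (tibial and common peroneal) are tied and cut while the sural branch is left, and was given saline. The PLM group had the same injury and was given 20.65 mg/ml paeoniflorin, a monoterpene glycoside of peony root, with 3.98 mg/ml liquiritin, a flavonoid glycoside of liquorice root. Gavage lasted 21 days, and the age of the rats is not given in the sources used here. The labels of PLM replicates 2 and 3 give the liquiritin dose as 3.99 and 3.100 mg/ml. None of the 3 groups was sham-operated and given the drugs, so an effect of the drugs without injury cannot be read.

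Syndecans are transmembrane core proteins and glypicans are core proteins held to the membrane by a GPI anchor. Both carry heparan sulfate, a sulfated sugar chain that binds growth factors, guidance cues and matrix proteins and presents them to their receptors. Syndecan-3 is also known as neuronal syndecan, syndecan-4 is a focal adhesion component found in astrocytes, and glypicans made by astrocytes and neurons take part in the formation and organisation of synapses.

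The promoters of Sdc4 and Sdc3, the members with the largest differences between PLM and SNI, are shown as RefSeq gives them on the GRCr8 rat assembly, 300 bases around the gene start, 5′ to 3′ on the strand of the gene. The capitals mark the GC box GGGCGG or its complement CCGCCC, searched on both strands, overlapping copies included. The Sdc4 window is chr3:173592874-173593173 on the minus strand, and the Sdc3 window is chr5:148249542-148249841 on the plus strand.
Sdc4: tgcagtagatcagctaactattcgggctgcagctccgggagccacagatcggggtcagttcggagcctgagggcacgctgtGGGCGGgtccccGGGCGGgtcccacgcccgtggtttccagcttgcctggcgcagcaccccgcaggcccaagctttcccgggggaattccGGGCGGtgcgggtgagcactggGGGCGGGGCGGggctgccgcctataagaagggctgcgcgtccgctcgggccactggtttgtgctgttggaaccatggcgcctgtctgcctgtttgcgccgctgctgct
Sdc3: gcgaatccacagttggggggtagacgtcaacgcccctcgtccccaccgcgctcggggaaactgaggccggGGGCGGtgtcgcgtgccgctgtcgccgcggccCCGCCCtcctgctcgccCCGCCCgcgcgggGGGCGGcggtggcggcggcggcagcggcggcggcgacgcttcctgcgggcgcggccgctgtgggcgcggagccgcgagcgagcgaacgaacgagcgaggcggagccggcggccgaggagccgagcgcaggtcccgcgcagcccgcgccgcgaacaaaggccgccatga
The Sdc4 window held 5 GC boxes, 68.7% G and C and 26 CpG dinucleotides. The Sdc3 window held 4 GC boxes, 79.3% G and C and 57 CpG dinucleotides. Of 33469 rat promoter windows of this length, 33.1% held a GC box, and their median G and C content was 51.7%. Neither window held the TATA box TATAAA, the E-box CACGTG or the spaced pair of STAT half-sites TTCNNNGAA on either strand, which occurred in 14.2%, 6.42% and 8.87% of all windows. Windows were also found for Sdc1, Gpc2, Gpc3 and Gpc5, which held 3, 3, 4 and 1 GC boxes. A match of these letters is a description and was not tested as a binding site.

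Levels are in TPM, a measure of transcript abundance that is scaled for transcript length, so genes can be set side by side. The TPM of a sample sum to a fixed total and keep no read depth, so no counting error can be given and precision was judged from the spread of 3 samples. The 13 mitochondrial protein genes took 25.3% to 32.8% of the total in JA, 23.7% to 26.1% in SNI and 31.3% to 32.8% in PLM. The median log2 difference of all loci tested was -0.21 in PLM minus SNI, 0.12 in SNI minus JA and -0.10 in PLM minus JA. Differences of the members are therefore also given after the median of the loci was set equal in the samples, which is called median-centred. Samples JA3, SNI2 and PLM3 had the highest summed level of 6 Schwann cell markers in their groups, and the sum ranged 62.9-fold over the 9 samples. All 18 astrocyte markers and all 14 neuron markers listed were detected.

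Sdc3 and Gpc1 were the most abundant members, Sdc2 and Sdc4 came next, and Gpc3, Sdc1 and Gpc2 followed. In JA the mean levels were 48.9 ± 14.3 TPM for Sdc3, 40.9 ± 10.2 for Gpc1, 21.5 ± 0.594 for Sdc2, 21.4 ± 6.08 for Sdc4, 7.59 ± 6.43 for Gpc3, 1.37 ± 0.400 for Sdc1 and 0.537 ± 0.255 for Gpc2 (SD, n = 3). The ranges of Sdc3 and Gpc1 overlapped, as did those of Sdc2 and Sdc4, so neither pair could be ordered by its means in JA. The order within a sample does not depend on the scaling. Sdc3 was above Gpc1 in 3 of 3 JA and 3 of 3 SNI samples and below it in 3 of 3 PLM samples. Sdc4 was above Sdc2 in 2 of 3 JA and 3 of 3 SNI samples and below it in 3 of 3 PLM samples.

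**Figure D1:**
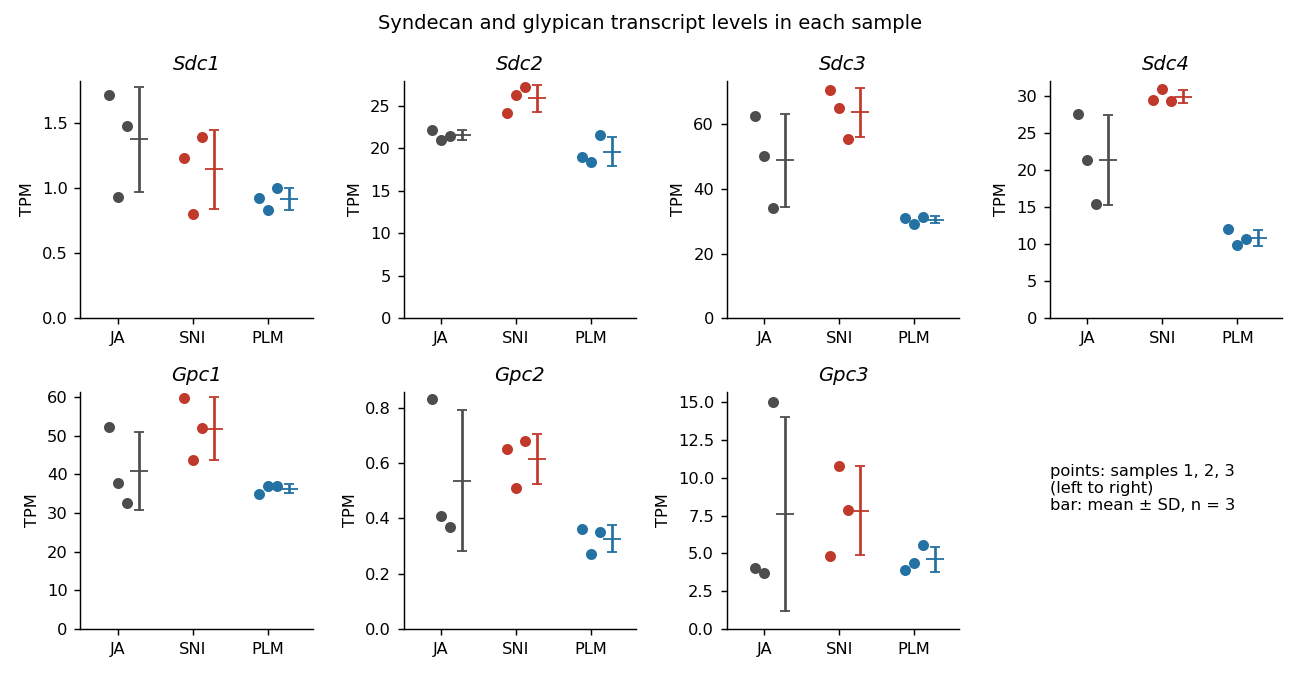
Level of each syndecan and glypican (TPM, linear axes starting at 0) in samples 1, 2 and 3 of JA, SNI and PLM (points, left to right), with the mean ± SD of 3 samples. Sdc4 lies between 9.88 and 11.98 TPM in PLM and between 29.4 and 31.0 in SNI, while Sdc1 and Gpc3 overlap in all groups.

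The largest difference among the members was that of Sdc4 (ENSRNOG00000014297), which encodes syndecan-4. Its levels were 27.5, 21.3 and 15.4 TPM in JA, 29.4, 31.0 and 29.4 in SNI, and 11.98, 9.88 and 10.7 in PLM. Every PLM sample was below every SNI and JA sample, and every SNI sample was above every JA sample. The SNI mean was 2.75 times the PLM mean, 29.9 ± 0.907 against 10.9 ± 1.06 TPM, and the JA mean was 1.97 times the PLM mean. On the log2(TPM + 1) scale the PLM minus SNI difference was -1.38 (SE 0.08), and -1.14 (SE 0.10) when median-centred.

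Sdc3 (ENSRNOG00000011927) encodes syndecan-3. Its levels were 62.6, 50.1 and 34.0 TPM in JA, 70.5, 65.1 and 55.5 in SNI, and 30.9, 29.2 and 31.4 in PLM. All PLM samples were below all samples of both other groups, whereas JA and SNI overlapped. The JA samples spread most, with JA3 close to the PLM range. The PLM minus SNI difference in log2(TPM + 1) was -1.03 (SE 0.10), and -0.78 (SE 0.09) when median-centred.

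Sdc2 (ENSRNOG00000004936) encodes syndecan-2, known for its part in dendritic spine maturation. Its levels were 22.2, 20.98 and 21.4 TPM in JA, 24.1, 26.2 and 27.2 in SNI, and 18.9, 18.3 and 21.5 in PLM. SNI stood above both other groups without overlap, and JA and PLM overlapped. The range over all 9 samples was 1.48-fold, the narrowest of the members. The PLM minus SNI difference in log2(TPM + 1) was -0.38 (SE 0.09), and -0.14 (SE 0.08) when median-centred.

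Sdc1 (ENSRNOG00000059947) encodes syndecan-1, the main syndecan of epithelia and plasma cells. Its levels were 1.71, 0.93 and 1.47 TPM in JA, 1.23, 0.80 and 1.39 in SNI, and 0.92, 0.83 and 1.00 in PLM. The 3 groups overlapped, and the PLM minus SNI difference in log2(TPM + 1) was -0.15 (SE 0.18) as deposited and 0.10 (SE 0.18) when median-centred, so its sign depended on the scaling.

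Gpc1 (ENSRNOG00000049437) encodes glypican-1, the most abundant glypican here. Its levels were 52.2, 37.7 and 32.6 TPM in JA, 59.8, 43.6 and 52.0 in SNI, and 34.9, 36.9 and 36.9 in PLM. PLM was below SNI in all samples and lay inside the range of JA. The PLM minus SNI difference in log2(TPM + 1) was -0.49 (SE 0.12), and -0.25 (SE 0.11) when median-centred.

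Gpc3 (ENSRNOG00000060179) encodes glypican-3, a regulator of hedgehog and Wnt signalling in growth. Its levels were 4.06, 3.70 and 15.02 TPM in JA, 4.86, 10.8 and 7.85 in SNI, and 3.92, 4.35 and 5.54 in PLM. All groups overlapped, and sample JA3 was the highest of all. The PLM minus SNI difference in log2(TPM + 1) was -0.61 (SE 0.26), and -0.36 (SE 0.26) when median-centred. As deposited it was -0.37 without SNI2 and -0.88 without SNI1.

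Gpc2 (ENSRNOG00000001367) encodes glypican-2, known from developing neurons. It was under 1 TPM in every sample, at 0.83, 0.41 and 0.37 TPM in JA, 0.65, 0.51 and 0.68 in SNI, and 0.36, 0.27 and 0.35 in PLM. The PLM samples were the lowest of the 9, and the gene stayed out of the fits, which left out loci averaging under 1 TPM. The remaining glypicans with a row were Gpc4 and Gpc6. Gpc4, known as a synaptogenic factor released by astrocytes, was at 5.06 ± 0.976 TPM in JA, 5.91 ± 1.08 in SNI and 4.30 ± 0.588 in PLM, and Gpc6 stayed between 0.25 and 1.10 TPM.

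Between PLM and SNI, 6 of the 7 members with a row passed the filter on low levels. The members were selected on this contrast, so the counts that follow describe them and nothing is read from them. At an adjusted p under 0.05 in limma, 4 of these 6 were lower in PLM (Sdc2, Sdc3, Sdc4 and Gpc1) and 0 were higher, where 13.6% of 15474 loci were lower and 0.246% higher. After median-centring 2 of 6 were lower (Sdc3 and Sdc4), where 0.685% of loci were lower and 0.129% higher. The groups did not overlap for the same 4 members, and PLM lay wholly below SNI for 41.9% of all loci. The median difference of the 6 members was -0.55 against -0.21 for all loci, and -0.30 against 0.04 when median-centred. Among the 15474 loci Sdc4 was the 137th from the lowest difference and Sdc3 the 305th. Without SNI2 and PLM3 the differences of Sdc4 and Sdc3 were -1.35 and -1.03, and neither passed with 2 samples a group, where 9 loci were called lower in all.

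**Figure D2:**
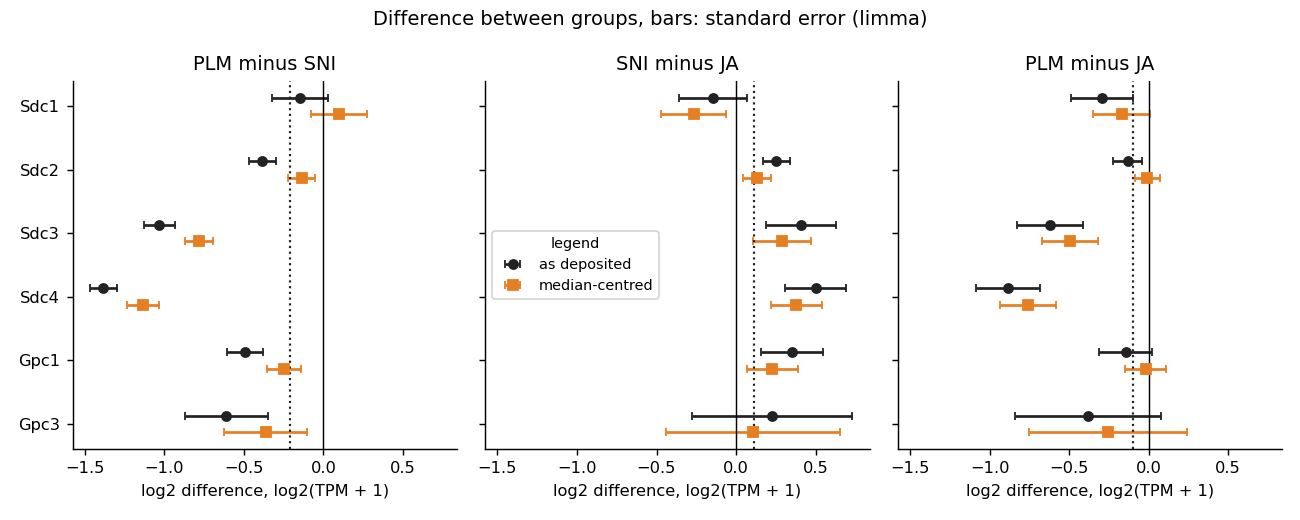
Difference in mean log2(TPM + 1) between groups for the 6 members fitted, with bars of 1 standard error, as deposited (circles) and median-centred (squares); the dotted line is the median of all loci as deposited. Sdc4 and Sdc3 lie farthest from 0 in PLM minus SNI, at -1.38 and -1.03, and lie on the other side of 0 in SNI minus JA, at 0.50 and 0.41.

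The injury itself was assessed by comparing SNI with JA. This contrast shares its SNI samples with the contrast on which the members were selected, so it is not independent of that choice. No member passed an adjusted p of 0.05. limma called 0 of 15557 loci in either direction (0.0%), with 154 loci lower (0.99%) and 950 higher (6.11%) at an unadjusted p under 0.05. Sdc4 was 1.40 times the JA level, with a log2 difference of 0.50 (SE 0.19, adjusted p = 0.614, limma), and Sdc2 was 1.201 times the JA level, with 0.25 (SE 0.09, adjusted p = 0.614). These were the 2 members at an unadjusted p under 0.05 in limma, and 0 were after median-centring, where 1.7% of loci were higher. They were also the 2 whose SNI samples all lay above JA, as for 12.1% of all loci. Sdc3 had 0.41 (SE 0.22), Gpc1 0.35 (SE 0.19) and Gpc3 0.23 (SE 0.50), and Sdc1 had -0.14 (SE 0.21), with adjusted p from 0.614 to 0.862. Median-centred, the differences were 0.38 for Sdc4, 0.13 for Sdc2, 0.29 for Sdc3, 0.23 for Gpc1, 0.11 for Gpc3 and -0.26 for Sdc1. The median of the 6 members was 0.30 against 0.12 for all loci, and 0.18 against -0.01 when median-centred. Without JA3, Sdc4 had 0.29, Sdc3 0.18 and Gpc1 0.21, and without JA1 they had 0.69, 0.61 and 0.54. Sdc1 had -0.28 without JA2 and -0.02 without SNI2. The size for these members thus rested on which samples were kept.

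Treated injured rats were then compared with sham-operated rats, PLM against JA. This contrast shares its PLM samples with PLM against SNI, on which the members were selected, and its JA samples with SNI against JA, so the differences are not independent. Sdc4 was the lowest member relative to JA, at 0.508 of the sham mean, with a log2 difference of -0.88 (SE 0.20, adjusted p = 0.330, limma) and -0.76 (adjusted p = 0.455) when median-centred. Sdc3 was at 0.624 of the sham mean, with -0.62 (SE 0.21, adjusted p = 0.373) and -0.50 (adjusted p = 0.494) when median-centred. No member passed, and limma called 2 loci lower (0.013%) and 1 higher (0.00652%) of 15349. These 2 members were at an unadjusted p under 0.05 under both scalings in limma, where 10.5% of loci were lower at that level, and 4.72% when median-centred. Their PLM samples all lay below JA, as for 15.7% of loci. Gpc1 (-0.14, SE 0.17), Sdc2 (-0.13, SE 0.09), Sdc1 (-0.29, SE 0.19) and Gpc3 (-0.38, SE 0.46) had adjusted p from 0.596 to 0.768. Median-centred, these differences were -0.02, -0.01, -0.17 and -0.26, and that of Gpc1 was 0.0435 as deposited without JA1.

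The makeup of each family was taken as the share of a gene in the summed TPM of its family in the same sample, which no scaling of the sample can move. The summed syndecan level was 93.2 ± 20.9 TPM (SD, n = 3) in sham rats, 120.6 ± 6.28 TPM after injury and 61.9 ± 3.28 TPM after injury and treatment. Sdc3 supplied 47.1% to 56.3% of it in all 9 samples. The share of Sdc4 was 24.2%, 22.8% and 21.3% in JA, 23.5%, 25.1% and 25.9% in SNI, and 19.1%, 17.0% and 16.6% in PLM. All PLM shares of Sdc4 were the lowest of the 9. The share of Sdc2 was 19.4%, 22.5% and 29.6% in JA, 19.3%, 21.3% and 23.96% in SNI, and 30.2%, 31.5% and 33.2% in PLM, the highest of the 9. PLM minus JA was -5.21 percentage points for Sdc4 and 7.78 for Sdc2. Each had p = 0.10 in an exact two-sided permutation test, the smallest that 3 against 3 can give. After adjustment over the 18 shares tested, this permutation p was 0.60. Members were selected on their PLM levels, so these tests are not independent of that choice. Shares of a family sum to a fixed total, so these 2 are not separate results. Sdc2 itself averaged 21.5 TPM in JA and 19.6 in PLM. The ratio of Sdc3 to Sdc4 was 2.21 to 2.35 in JA, 1.89 to 2.40 in SNI and 2.58 to 2.96 in PLM. Between SNI and JA every share overlapped, and the shares of Sdc4 differed by 2.07 points (exact permutation p = 0.20, adjusted p = 0.72).

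Gpc1 was the main glypican in every sample. The summed glypican level was 54.8 ± 7.04 TPM in JA, 66.7 ± 4.37 in SNI and 45.7 ± 1.93 in PLM. Gpc1 supplied 59.7% to 84.8% of it, and the lowest share was that of JA3, where Gpc3 supplied 27.5%. In the other samples Gpc3 supplied 6.55% to 17.4%. The shares of Gpc1 and Gpc3 overlapped in every contrast. The small share of Gpc6 was 1.01% to 2.30% in JA and 0.523% to 0.795% in PLM, a difference of -0.84 points (exact permutation p = 0.10, adjusted p = 0.60). That of Gpc2 was 0.823% to 1.00% in SNI and 0.595% to 0.818% in PLM, without overlap. Gpc2 was under 1 TPM in every sample and the members were selected on this contrast, so nothing is read from this gap.

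**Figure D3:**
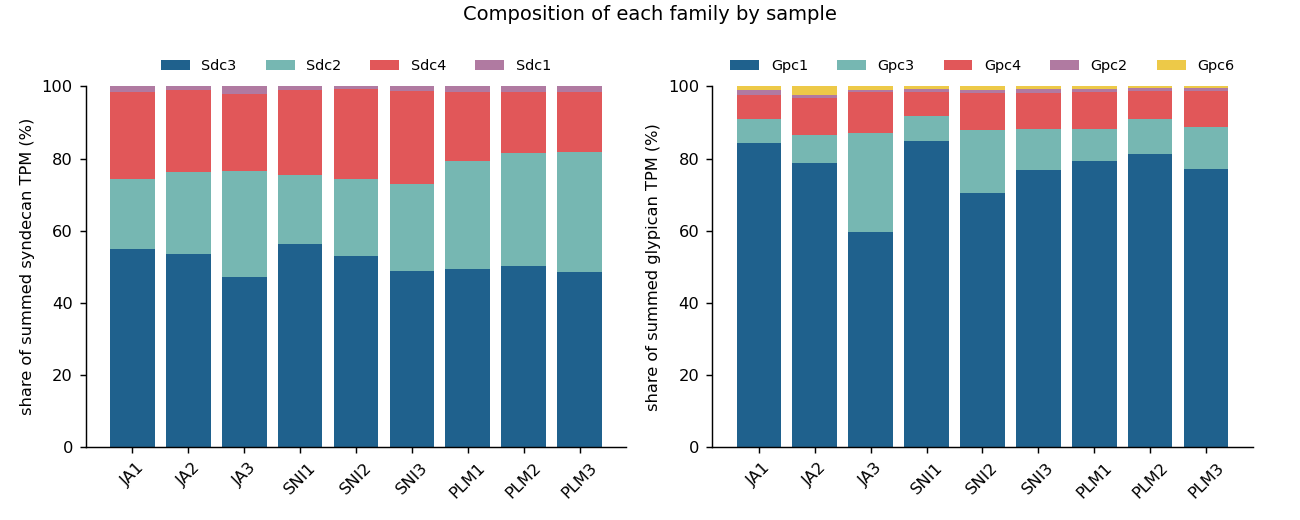
Share of each gene in the summed TPM of the syndecans (left) and glypicans (right) in each sample, stacked to 100%. The Sdc4 share is 16.6% to 19.1% in PLM and 21.3% to 25.9% in JA and SNI, and the Gpc3 share is largest in JA3, at 27.5%.

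Markers of some cell types moved with the members. The summed astrocyte markers ranged from 4604 to 7587 TPM in JA, 6444 to 7741 in SNI and 3398 to 4070 in PLM, and none of the 18 was at 0. In PLM against SNI all 18 had a difference below 0 and 17 were lower at an adjusted p under 0.05, with a median of -1.28, and -1.04 when median-centred. Their medians were 0.45 in SNI minus JA and -0.86 in PLM minus JA. The 6 meningeal and fibroblast markers tested had medians of -0.61 in PLM minus SNI, -1.05 in PLM minus JA and -0.38 in SNI minus JA, where 5 of 6 were below 0. Neuron and Schwann cell markers had medians of 0.44 and 0.58 in SNI minus JA, -0.30 and -0.66 in PLM minus SNI, and 0.22 and -0.02 in PLM minus JA. Median-centred PLM minus SNI medians were -0.41 for Schwann cell, -0.36 for meningeal and fibroblast, -0.05 for neuron, 0.27 for microglia, 0.15 for oligodendrocyte and 0.34 for endothelium markers. In spinal cord tissue that was not sorted into cells, fewer cells of a type and less RNA in each cell cannot be told apart. Over 9 samples the astrocyte sum had a Pearson r of 0.97 with Sdc3 and 0.96 with Sdc4, and over the 6 JA and SNI samples 0.98 and 0.89. The points share the fixed total of their samples. Per 1000 TPM of astrocyte markers, Sdc3 was 7.38 to 8.25 TPM in JA, 8.61 to 9.21 in SNI and 7.32 to 9.25 in PLM, so PLM overlapped both other groups and SNI lay above JA. Per 1000 TPM of astrocyte markers, Sdc4 was 3.63, 3.33 and 3.34 TPM in JA, 3.80, 4.38 and 4.56 in SNI, and 2.94, 2.47 and 3.16 in PLM. For Sdc4 the 3 groups did not overlap, with PLM lowest and SNI highest. These ratios depend on S100b and Aldoc, which made up 64.8% to 77.1% of the astrocyte sum. Taken marker by marker, the PLM to JA ratio of means ran from 0.381 to 0.755 over the 18 astrocyte markers, and that of Sdc4, 0.508, was above 9 and below 9 of them. The PLM to SNI ratio of Sdc4, 0.363, was above 7 and below 11 of the 18, and its SNI to JA ratio, 1.40, was above 12 and below 6. By these ratios of means, Sdc4 lay within the range of the single astrocyte markers in each contrast, as did Sdc3. Per 1000 TPM of astrocyte markers Gpc1 was 8.56 to 10.9 TPM in PLM and 6.17 to 8.06 in SNI, whereas per 1000 TPM of neuron markers it was 6.61 to 7.69 in PLM and 7.25 to 9.21 in SNI, which overlapped. The part of astrocyte content in the member differences was not tested.

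Gpc3 moved with another tissue component. The summed Schwann cell markers, none of 6 at 0, ranged from 126 to 7897 TPM in JA, 580 to 4495 in SNI and 277 to 3308 in PLM. Their r with Gpc3 was 0.86 over 9 samples and 0.95 over the JA and SNI samples, with Spearman's rho of 0.93 and 0.94. The sum of the 7 meningeal and fibroblast markers with a row was also highest in JA3, at 369 TPM, and lowest in PLM1, at 65.5. Single markers did not all follow the sum, and Igf2 was at 33.7 TPM in JA3 and 55.0 in JA2. The r of this sum with Gpc3 was 0.84 over 9 samples and 0.83 over the JA and SNI samples, with rho of 0.48 and 0.49. Without JA3 the PLM minus JA difference of Gpc3 was 0.19 in place of -0.38. How these tissues entered the samples was not tested. The summed neuron markers, none of 14 at 0, were 2933 to 5727 TPM in JA, 5624 to 7165 in SNI and 4798 to 5573 in PLM, and their r with Gpc1 was 0.71 over 9 samples and 0.88 over the JA and SNI samples, where that of the astrocyte sum with Gpc1 was 0.79 and 0.84.

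**Figure D4:**
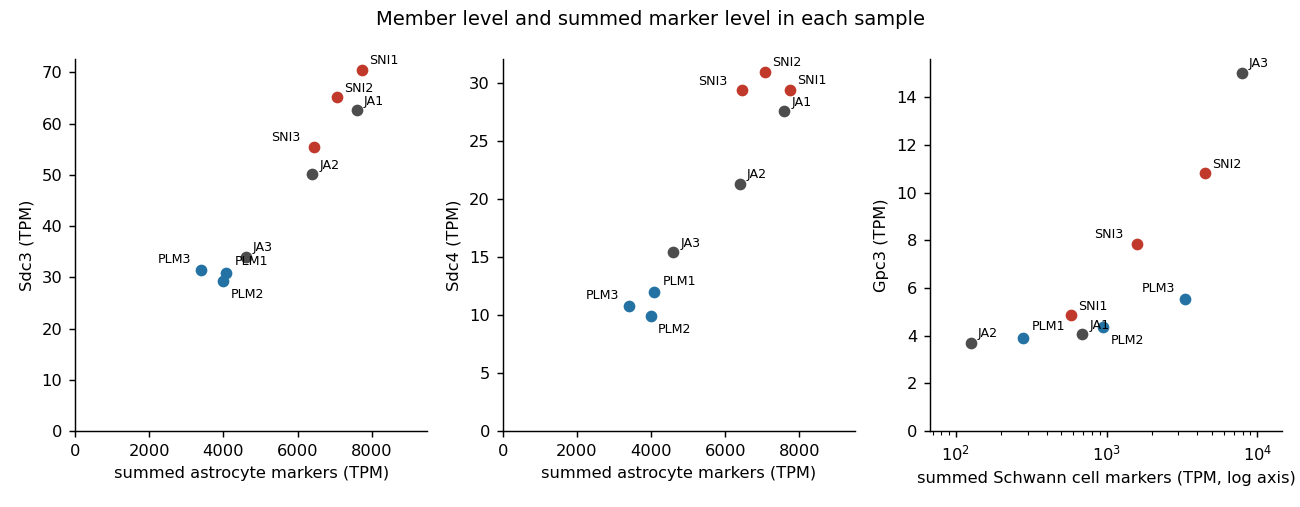
Level of Sdc3 and Sdc4 against the summed astrocyte markers and of Gpc3 against the summed Schwann cell markers (log axis), all in TPM, 1 point per sample. Sdc3 and Sdc4 are lowest in the 3 PLM samples, which hold 3398 to 4070 TPM of astrocyte markers, and Gpc3 is highest in JA3, which holds 7897 TPM of Schwann cell markers.

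The loci most like each member were ranked by Pearson r of median-centred log2(TPM + 1) over the 9 samples, among 13953 named loci. For Sdc4 they included Eva1a (0.994), a regulator of autophagy, Tas1r2 (0.992), a sweet taste receptor subunit, Gpr75 (0.986), an orphan-type receptor, and Ppp1r1b (0.985), an inhibitor of protein phosphatase 1. Eva1a was at 7.12 TPM in JA, 10.4 in SNI and 2.77 in PLM on average, the same order of groups as Sdc4. For Sdc3 they were Plxnb1 (0.998), a semaphorin receptor, Tril (0.998), a partner of Toll-like receptors, and Dao (0.997), which oxidises D-serine. Tril was at 28.1 TPM in JA, 41.4 in SNI and 13.1 in PLM on average. For Gpc1 they were Lmtk2 (0.987), a kinase, Wfs1 (0.983), a membrane protein of the endoplasmic reticulum, and Ctif (0.978), a translation factor. For Gpc3 they were Cldn1 (0.975), a tight junction protein, Scara5 (0.961), a ferritin receptor, and Gas2l3 (0.954), a cytoskeletal linker. Without JA3 and SNI2, the samples farthest from the median of Gpc3, these 3 values were 0.877, 0.819 and 0.813. The closest to Sdc2 reached 0.904 (Arrdc3), 0.899 (Pvr) and 0.898 (Zfp606), and to Sdc1 0.932 (Slc35c2), 0.917 (Wdr83os) and 0.909 (Zgpat). Without the 2 samples farthest from the median of the member, the values for Sdc2 were 0.825, 0.628 and 0.735, and those for Sdc1 were 0.915, 0.799 and 0.859.

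The rest of the heparan sulfate pathway was read from 85 listed genes, of which 82 had a row. Hspg2, Hs3st4 and Hpse2 matched no row by name, and B3galt6 is listed at 0 in every sample. In PLM against SNI, 20 of 71 tested were lower and 0 higher at an adjusted p under 0.05 in limma, against 13.6% and 0.246% of all loci. Their median was -0.33, against -0.21 for all loci. After median-centring 1 of 71 was lower (Gpld1), against 0.685% of loci, with a median of -0.08 against 0.04. Most of the lower calls were thus lost after median-centring. Without centring, most were also lost when all 9 samples were fitted (3 lower) or with the replicate block (2 lower).

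By role, the lower calls as deposited were 3 of 9 for other heparan sulfate proteoglycans, 4 of 13 for enzymes of the linkage region and chain polymerisation, 3 of 11 for sulfation enzymes, 2 of 10 for chain editing and shedding enzymes, 2 of 7 for partners of the syndecan tail, 6 of 20 for ligands and coreceptors, and 0 of 1 for other glypicans. Gpld1 encodes the phospholipase that cleaves GPI anchors, which hold glypicans to the membrane. It was at 14.3, 9.34 and 5.27 TPM in JA, 14.3, 14.5 and 11.3 in SNI, and 5.60, 5.88 and 4.55 in PLM. Its PLM minus SNI difference was -1.18 (SE 0.13, adjusted p = 0.0079, limma), and -0.93 (adjusted p = 0.0496) when median-centred. It did not pass when all 9 samples were fitted (adjusted p = 0.051, limma) or without SNI2 and PLM3 (adjusted p = 0.077), and over its 15 alternatives it passed in 13. Extl1, a glycosyltransferase of heparan chain elongation, was at 10.3 ± 5.46 TPM in JA, 13.7 ± 2.93 in SNI and 4.88 ± 0.516 in PLM. Its difference was -1.31 (SE 0.16, adjusted p = 0.011, limma), and -1.06 (adjusted p = 0.058) when median-centred. Extl1 passed in 11 of its 15 alternatives. Besides median-centring, it failed with quantile normalization (adjusted p = 0.054, limma), with all 9 samples fitted (0.058) and without SNI2 and PLM3 (0.082). Both genes had a PLM range wholly below SNI, as did Sdc4, but their JA3 value lay inside the PLM range. PLM lay wholly below SNI for 44 of the 71 pathway genes and 41.9% of all loci.

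Mdk encodes midkine, a heparin-binding growth factor that binds syndecans. It was at 77.4, 69.7 and 53.7 TPM in JA, 64.9, 66.5 and 72.6 in SNI, and 46.8, 39.3 and 46.6 in PLM, so PLM was below both other groups. Its PLM minus SNI difference was -0.61 (SE 0.09, adjusted p = 0.016, limma), and -0.37 (adjusted p = 0.170) when median-centred. Ptn, the related factor pleiotrophin, chosen after its values were seen, overlapped in all groups at 226.6 ± 24.7, 207.7 ± 29.1 and 196.5 ± 20.8 TPM in JA, SNI and PLM. Cd44, a hyaluronan receptor that can carry heparan sulfate, was also chosen after its values were seen, and differed by -0.84 (SE 0.16, adjusted p = 0.028, limma), and by -0.59 (adjusted p = 0.164) when median-centred.

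**Figure D5:**
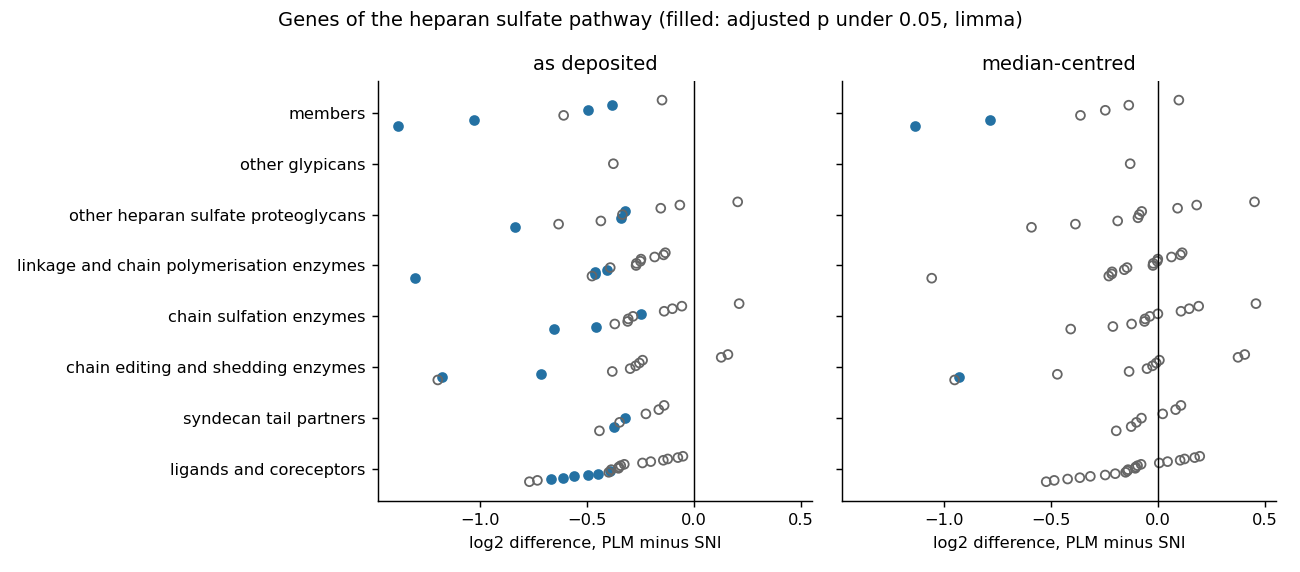
PLM minus SNI difference in mean log2(TPM + 1) of each gene tested, by role, as deposited (left) and median-centred (right); filled points have an adjusted p under 0.05 in limma, and for the members the fill is a description. As deposited 20 of 71 pathway genes are filled, and 1 of 71 after median-centring.

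In SNI against JA, 0 of 73 pathway genes passed in limma, with 8 higher and 0 lower at an unadjusted p under 0.05, where 6.11% of all loci were higher and 0.99% lower. After median-centring 2 were higher and 1 lower at that level, where 1.7% of loci were higher and 3.13% lower. The 3 with the smallest p were Ugp2, which makes UDP-glucose, Robo2, a receptor for Slit guidance cues, and Hs2st1, the 2-O-sulfotransferase. Ugp2 was at 35.8 ± 4.29 TPM in JA and 47.0 ± 3.94 in SNI, with a log2 difference of 0.39 (SE 0.12, adjusted p = 0.614, limma). Robo2 had 0.37 (SE 0.11) and Hs2st1 0.25 (SE 0.08), both with adjusted p = 0.614. Median-centred, the differences of Ugp2, Robo2 and Hs2st1 were 0.26, 0.24 and 0.12. SNI lay wholly above JA for all 3, as for 8 of the 73 pathway genes and 12.1% of all loci.

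In PLM against JA, 0 of 72 pathway genes passed in limma, with 11 lower and 0 higher at an unadjusted p under 0.05, where 10.5% of all loci were lower and 1.3% higher. After median-centring 7 were lower and 2 higher at that level, where 4.72% of loci were lower and 5.26% higher. The 3 with the smallest p were Mmp14, a membrane metalloproteinase that can shed syndecans, Col18a1, a basement membrane collagen that carries heparan sulfate, and Mmp15, a membrane metalloproteinase related to Mmp14. Mmp14 was at 8.97, 7.44 and 12.9 TPM in JA, 7.23, 13.8 and 7.0 in SNI, and 2.28, 3.17 and 4.90 in PLM, with a PLM minus JA difference of -1.29 (SE 0.27, adjusted p = 0.276, limma). The PLM samples of Mmp14 were below those of both other groups. Col18a1 had -0.81 (SE 0.20, adjusted p = 0.340) and Mmp15 -0.68 (SE 0.18, adjusted p = 0.342), and their PLM samples also lay below JA, as for 11 of the 72 pathway genes and 15.7% of all loci. Median-centred, the differences of Mmp14, Col18a1 and Mmp15 were -1.16, -0.69 and -0.55.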

How the data were processed

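RNA from 9 spinal cord samples (JA, SNI and PLM, 3 each) was sequenced from TruSeq libraries. The authors mapped reads with HISAT2 and deposited StringTie values as TPM, which is scaled for length and to a fixed total. The submitters' processing notes also name CASAVA, fastp 0.19.5 and GRCh38.p13, a human build, whereas the identifiers are rat Ensembl; the rat build is not given in the sources used here. Depth is unknown, so count tests were not used.

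Groups were compared in pairs on log2(TPM + 1) by limma 3.58.1 (R 4.3.3, trended variance, no covariates), keeping loci that averaged 1 TPM or more in the 6 samples, with Benjamini-Hochberg adjustment over all loci tested. A fold change on this scale understates that of low genes. p-values measure the spread between samples labelled as biological replicates. Family shares were compared by exact two-sided permutation tests with scipy 1.17.1. RefSeq promoter windows on GRCr8 were found for 7 of the 10 syndecan and glypican genes looked up.

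The members, gene lists and tests were chosen with earlier results of these data known. Named were every member, Gpc4 and Gpc6, the pathway genes past an adjusted p of 0.05 when median-centred or, where fewer than 3 did, the 3 with the smallest p as deposited in each contrast, and the 5 loci most like Sdc4 or the 3 most like each other member of at least 1 TPM. The result of 1 of these loci is not reported here. The alternatives were median-centring, quantile normalization, rescaling without mitochondrial protein genes, a pseudocount of 0.1, no filter or a minimum of 5 TPM, 1 fit of all 9 samples, a replicate block, and omission of single samples. Leaving out the sample of highest Schwann cell markers in each group was chosen after seeing the data.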

Additional observations from a re-analysis of the deposited data

How the results depend on the processing

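The PLM minus SNI differences of Sdc4 and Sdc3 stayed below 0 in all 15 alternatives, from -1.46 to -1.14 and from -1.13 to -0.78. The members were selected on this contrast, so these values and the counts of members support nothing. The number of members lower in PLM than in SNI, 4 as reported, was 2 with median-centring, quantile normalization, rescaling without mitochondrial protein genes, no filter or the replicate block, 2 to 3 when a replicate was left out, and 0 without the high Schwann cell samples, where fewer samples entered and 9 loci were lower in all. The number of pathway genes lower, 20 as reported, was 1 with median-centring or quantile normalization, 2 without mitochondrial protein genes, 8 with no filter, 3 with all 9 samples fitted, 2 with the replicate block, 2 to 9 when a replicate was left out (2 without SNI1 and 3 without PLM1 or PLM2), and 0 without the high Schwann cell samples. The cause of the other changes was not tested.

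Replicates with the same number had correlations of -0.046 to 0.126 in their median-centred deviations, over loci averaging 1 TPM or more. Such correlations cannot show a level shared only by some genes, so whether the numbers pair samples is not known. The replicate block, which takes residual degrees of freedom, is given only here. With it the SE of Sdc3 went from 0.22 to 0.12 in SNI minus JA and from 0.10 to 0.11 in PLM minus SNI. Changes of sign occurred for results that did not pass. Sdc1 in PLM minus SNI was 0.10 with median-centring and 0.0076 with quantile normalization. Sdc1 in SNI minus JA was 0.0136 and Gpc3 in PLM minus JA 0.0732 without the high Schwann cell samples. When a replicate was left out, Gpc3 ranged from -0.0847 to 0.80 in SNI minus JA and from -0.69 to 0.19 in PLM minus JA, and Gpc1 from -0.29 to 0.0435 in PLM minus JA. The PLM minus JA share of Sdc1 was 0.069 as a log2 ratio to the rest of its family with 0.1 TPM added to both. Some other shares changed sign when a replicate was left out. In SNI minus JA, that of Sdc2 ranged from -4.54 to 0.545 points and that of Sdc3 from -1.59 to 2.71. In PLM minus JA, that of Gpc1 ranged from -2.34 to 9.98. No alternative brought a member past the threshold in SNI against JA or PLM against JA. TPM keeps no depth, so low members such as Gpc2 and Sdc1 have an unknown counting error.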
